A study of Vitis vinifera with 15 samples.

Results

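Skin of ripening Shine Muscat grapes (Shine muscat in the labels) was set against skin of ripening Summer Black grapes by taking the 3 libraries labelled with each of these cultivars, which makes 6 of the 15 RNA-seq libraries of the series. Shine Muscat has lime-green berries with a muscat aroma, and Summer Black has dark red berries with a strawberry aroma. The other 9 libraries are ripening skin of Centennial Seedless (lime-green, muscat), Midnight Beauty (dark red, muscat, spelled Midknight Beauty in the labels) and Victoria (lime-green, without aroma), with 3 libraries each. No treatment separates the cultivars, all of which grew in 1 vineyard, and each replicate pooled bunches picked at random from several vines. Shine Muscat and Summer Black differ in aroma type and in skin colour, and these and any other difference between the cultivars cannot be told apart in a comparison of 1 cultivar with another. The labels call the 3 libraries of a cultivar replicates at ripening, whereas a passage of the study's methods assigns their numbers to successive harvest stages. They were treated as replicates here, as the labels and the study's sequencing summary do. The labelled tissue, skin, was not checked against marker genes, since the sources used here pair no gene ID with a skin marker.

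Muscat aroma comes mainly from monoterpenes such as linalool and geraniol. Their precursors are made in plastids by the methylerythritol phosphate pathway, whose entry enzyme is deoxyxylulose phosphate synthase (DXS), and terpene synthases (TPS) turn the precursors into the volatile compounds. Much of the terpene pool in a berry is stored as odourless glycosides, which UDP-glycosyltransferases (UGT) make and beta-glucosidases (BGLU) can split. Alcohol dehydrogenases (ADH), short-chain dehydrogenases (SDR), cinnamoyl-CoA reductases (CCR) and cytochrome P450 enzymes (CYP) reduce or oxidise alcohols, aldehydes and related compounds. Strawberry-like aroma in grapes is known mainly from hybrids with American species and owes much to esters and furanones.

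Of 6 terpene synthase genes named by the study, 4 were listed at 0 in every library of one cultivar and above it in every library of the other, in both directions, and the other 2 did not pass the test. A terpene synthase gene at 26.2 to 31.4 FPKM in Shine Muscat was listed at 0 in every Summer Black library, and 3 other terpene synthase genes, at 3.06 to 27.1 FPKM in Summer Black, were listed at 0 in every Shine Muscat library. The calls of these 3 ended when any Shine Muscat library was left out, through the adjusted p alone, as the size of the difference was unchanged. A UDP-glycosyltransferase gene and 1 of 3 alcohol dehydrogenase genes were higher in Shine Muscat, the other 2 alcohol dehydrogenase genes were lower, and the DXS and beta-glucosidase genes were higher by smaller factors. Several of these differences also missed the threshold with a library left out, as given below for each gene. FPKM, the unit of every level given here, scales read fragments by the length of the gene and by the mapped fragments of the library, so that levels of genes can be set side by side per length. Among bulk skin samples, a change in the share of a cell type and a change in RNA per cell cannot be told apart.

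Of 31924 genes in the table, 18238 reached 1 FPKM in at least 3 of the 15 libraries and were tested with limma on log2(FPKM + 1). The log2 fold change is the Shine Muscat mean minus the Summer Black mean of log2(FPKM + 1), and a gene was called differentially expressed (DEG) where these means were 2 or more apart and the Benjamini-Hochberg adjusted p was 0.01 or less. There were 591 DEGs, 384 higher and 207 lower in Shine Muscat. At any fold, 2013 genes passed the adjusted p, 1456 higher and 557 lower. In 7966 tested genes (43.7%) every library of one cultivar lay above every library of the other, as was so for all 591 DEGs. The tested genes had a median log2 fold change of 0.13, and scaling the libraries by median of ratios brought it to -0.0039. The log2 fold changes below are on the deposited scale, so each contains this shift.

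**Figure D1:**
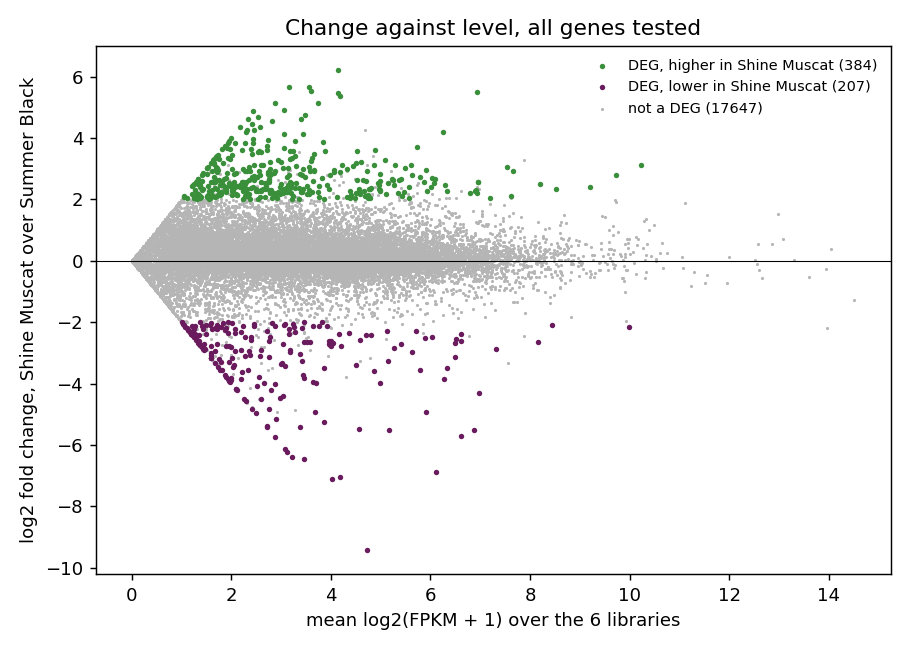
Log2 fold change of Shine Muscat over Summer Black (vertical axis, log2(FPKM + 1) scale) against the mean log2(FPKM + 1) of the 6 libraries (horizontal axis), with 1 point per tested gene. The 384 DEGs higher in Shine Muscat reach 6.22 and the 207 lower ones reach -9.43, and the sloping edges are genes listed at or near 0 in one of the cultivars.

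The groups of DEGs were unlike in their low ends. DEGs higher in Shine Muscat had a median of 17.1 FPKM in Shine Muscat and 1.46 FPKM in Summer Black, whereas the lower DEGs had a median of 0.644 FPKM in Shine Muscat and 16.99 FPKM in Summer Black. Of the lower DEGs, 46 (22.2%) were listed at 0 in all 3 Shine Muscat libraries, and of the higher DEGs, 29 (7.55%) were listed at 0 in all 3 Summer Black libraries. Over all tested genes, 255 were listed at 0 in all Shine Muscat libraries and 166 in all Summer Black libraries. Genes assembled anew by the authors, which carry no reference annotation, were 4.17% of the higher DEGs and 7.73% of the lower DEGs, beside 4.08% of all tested genes. At the other end, 40 of the higher DEGs stood at 100 FPKM or more in Shine Muscat, and 34 of the lower DEGs stood at 100 FPKM or more in Summer Black.

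The Shine Muscat libraries lay closer to each other than the Summer Black libraries did. The median SD of log2(FPKM + 1) between libraries was 0.14 in Shine Muscat and 0.27 in Summer Black (n = 3 each), and it was the wider in Summer Black for 75.9% of the tested genes. Pearson's r between libraries across genes, which are not independent replicates, was 0.985 to 0.991 within Shine Muscat, 0.944 to 0.949 within Summer Black and 0.866 to 0.907 between the cultivars. The 5 genes of highest FPKM took 9.79% to 10.2% of the summed FPKM in Shine Muscat and 15.1% to 16.7% in Summer Black. The sum itself was 718652 to 785002 FPKM in Shine Muscat and 741748 to 759239 FPKM in Summer Black. The table holds no counts, so depth is unknown from it. By the study's sequencing summary Shine Muscat replicate 1 had the fewest mapped reads of the 6 libraries, and more of its reads stayed unmapped than mapped. Summer Black replicate 3 had the next lowest share of mapped reads, below that of the other Summer Black libraries. How these low shares act on the FPKM values was not tested.

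The number of DEGs moved with single libraries. It was 333 without Shine Muscat replicate 1, 455 without replicate 2 and 315 without replicate 3, of which 119, 126 and 103 were lower in Shine Muscat. Leaving out a Summer Black library gave 648, 663 and 535 DEGs for replicates 1, 2 and 3. A pseudocount of 0.1 in place of 1 gave 1114 DEGs, with 714 higher and 400 lower in Shine Muscat. Of the 591 DEGs, 323 were called without Shine Muscat replicate 1, 401 without replicate 2 and 306 without replicate 3.

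**Figure D2:**
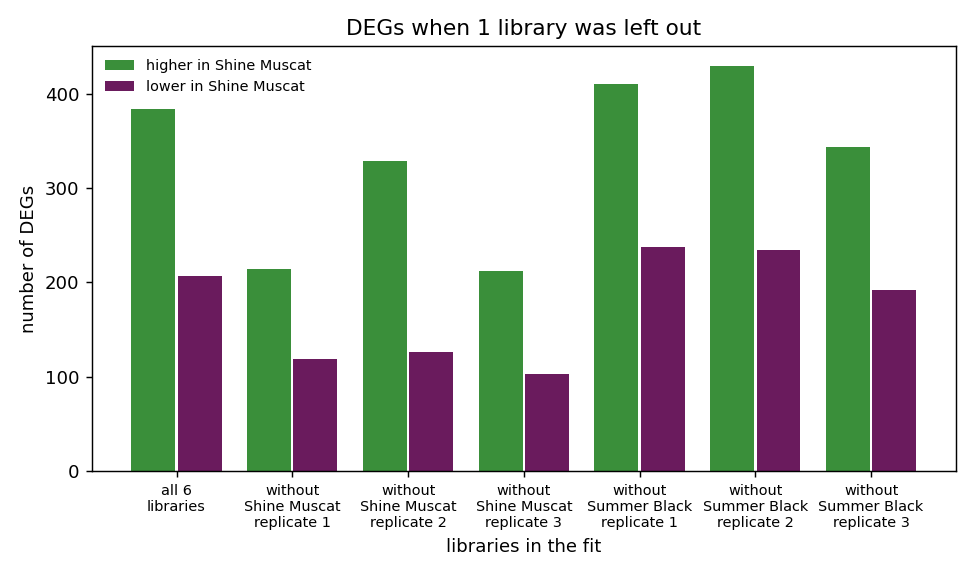
Number of DEGs (vertical axis) higher and lower in Shine Muscat with all 6 libraries and with 1 library left out at a time (horizontal axis). The 3 fits without a Shine Muscat library hold 315 to 455 DEGs and the 3 without a Summer Black library 535 to 663, beside 591 with all libraries.

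The study picked 20 genes from these libraries as aroma candidates and gave each a family name. Of them, 6 were DEGs (30%), 3 higher and 3 lower in Shine Muscat, against 3.24% of all tested genes (2.11% higher and 1.13% lower). At any fold, 12 of the 20 passed the adjusted p, 7 higher and 5 lower, against 11.0% of all tested genes, and the cultivars did not overlap in 13 (65%), against 43.7% of all tested genes. The candidates' median log2 fold change was 0.09, beside 0.13 over all tested genes. Because the study chose them for differences among these cultivars, their share of DEGs is a description. Of the 6 candidate DEGs, 1 was called without Shine Muscat replicate 1, without replicate 2 and without replicate 3, in each case the terpene synthase VIT_00s0271g00010. It was 5, 4 and 5 without Summer Black replicates 1, 2 and 3. With a pseudocount of 0.1 in place of 1, 9 of the 20 candidates were called. At the thresholds of the study's methods (log2 fold change of 1, adjusted p under 0.005) 10 were called. Median-of-ratios scaling and quantile normalization each gave 5, and a fit with the replicate number as a block gave 4.

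**Figure D3:**
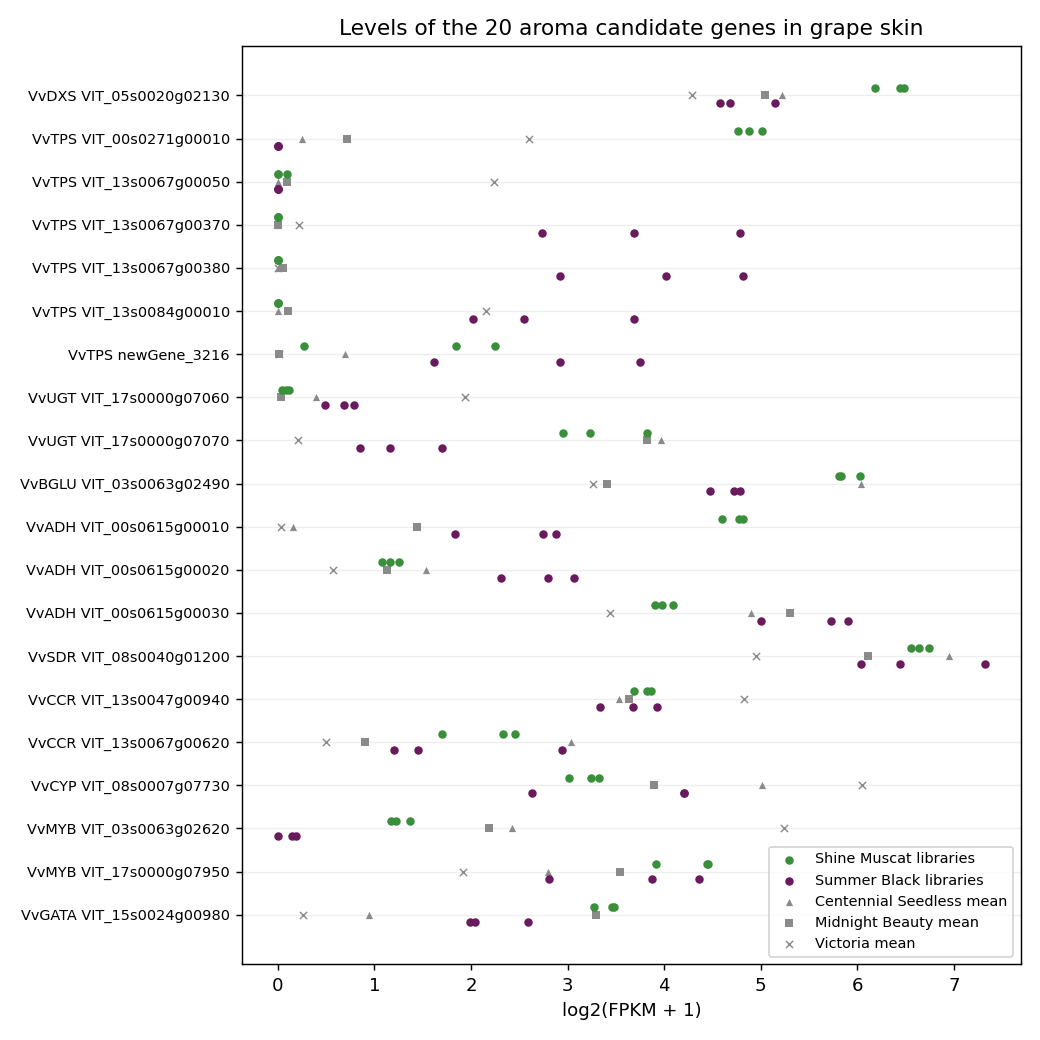
Levels of the 20 aroma candidate genes as log2(FPKM + 1) (horizontal axis), with 1 row per gene, a point per Shine Muscat and Summer Black library and a grey mark for the mean of each other cultivar. Of the VvTPS genes, 4 sit at 0 in every library of one cultivar and well above it in the other, and VvDXS at 71.4 to 88.7 FPKM in Shine Muscat stands above 22.9 to 34.5 FPKM in Summer Black.

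VvDXS (VIT_05s0020g02130), the entry enzyme of plastid terpene precursor synthesis, was higher in Shine Muscat. It had 88.7, 71.4 and 86.2 FPKM in Shine Muscat, against 34.5, 24.7 and 22.9 FPKM in Summer Black. The cultivars did not overlap, and the ratio of mean FPKM was 3.0. The log2 fold change was 1.57 ± 0.18 (SE, n = 3 each; limma adjusted p = 0.00184), or 1.44 relative to the median gene, so VvDXS stayed under the fold a DEG needed. Without Shine Muscat replicate 1 the adjusted p was 0.0147 and without replicate 3 it was 0.0156. Shine Muscat also stood above the other muscat cultivars, which had 36.0 to 36.9 FPKM (Centennial Seedless) and 29.9 to 33.6 FPKM (Midnight Beauty), and above Victoria at 16.2 to 23.2 FPKM.

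Terpene synthases (VvTPS) made up 6 of the candidates, and they went both ways. VIT_00s0271g00010 had 26.2, 31.4 and 28.5 FPKM in Shine Muscat and was listed at 0 in all 3 Summer Black libraries (limma adjusted p = 3.76e-05). It was called in each fit with a library left out, with an adjusted p of at most 0.0016. High levels of this gene did not follow muscat aroma across the series: Centennial Seedless had 0.0994 to 0.344 FPKM, Midnight Beauty 0.203 to 0.912 FPKM, and Victoria, without aroma, 4.34 to 6.12 FPKM.

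The opposite pattern held for VIT_13s0067g00370, VIT_13s0067g00380 and VIT_13s0084g00010, all listed at 0 in the 3 Shine Muscat libraries. VIT_13s0067g00370 had 26.6, 11.9 and 5.67 FPKM in Summer Black replicates 1, 2 and 3 (limma adjusted p = 0.00279). VIT_13s0067g00380 had 27.1, 15.2 and 6.60 FPKM there (limma adjusted p = 0.00183). In both genes replicate 1 was the highest Summer Black library and replicate 3 the lowest. VIT_13s0084g00010 kept this order, with 11.9, 4.85 and 3.06 FPKM in Summer Black (limma adjusted p = 0.00458). None of the 3 calls held when a Shine Muscat library was left out: without Shine Muscat replicates 1, 2 and 3 the limma adjusted p was 0.0195, 0.0148 and 0.0197 for VIT_13s0067g00370, 0.0142, 0.0107 and 0.0148 for VIT_13s0067g00380, and 0.0279, 0.0219 and 0.0284 for VIT_13s0084g00010. The log2 fold changes in these fits stayed at -3.74, -3.92 and -2.75 in this order, since every Shine Muscat value is 0. Only the adjusted p moved. VIT_13s0084g00010 was also above the threshold without Summer Black replicate 2, at a limma adjusted p of 0.0117. The 2 genes of the 13s0067 scaffold code were at 0 to 0.254 FPKM in every library of Centennial Seedless, Midnight Beauty and Victoria, whereas VIT_13s0084g00010 reached 3.23 to 3.84 FPKM in Victoria.

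VIT_13s0067g00370 and VIT_13s0067g00380 may share reads, which was not tested, as only their qPCR primers were compared. The primers the study designed for qPCR of these genes are shown because they are nearly the same; capitals mark the stretch common to both genes, 22 bases in the forward and 22 bases in the reverse primers.
VIT_13s0067g00370 forward: aGATGTTGTTGACAGGTGGGATA
VIT_13s0067g00380 forward: GATGTTGTTGACAGGTGGGATA
VIT_13s0067g00370 reverse: AAGCCATTTCATTAGTGGAGTTgta
VIT_13s0067g00380 reverse: AAGCCATTTCATTAGTGGAGTT
The other primer pairs were compared in the same way. The reverse primer of the newly assembled terpene synthase gene newGene_3216 matched the opposite strand of the VIT_13s0067g00370 forward primer at 19 of 22 positions and that of VIT_13s0067g00380 at 18 of 21. The sources used here name different counting tools, as given below. How reads were divided among such similar genes is therefore uncertain, and so are their separate levels.

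The remaining VvTPS candidates did not pass the test. newGene_3216 had 3.76, 0.210 and 2.59 FPKM in Shine Muscat, against 12.5, 6.59 and 2.06 FPKM in Summer Black, and the cultivars overlapped. Its log2 fold change was -1.31 (95% interval -2.96 to 0.34; limma adjusted p = 0.216). VIT_13s0067g00050 was listed at 0 in 5 of the 6 libraries and at 0.0667 FPKM in Shine Muscat replicate 3, with 2.47 to 4.80 FPKM in Victoria.

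Glycosylation and release of terpenes were represented by 2 UGT genes and a BGLU gene. VvUGT VIT_17s0000g07070 had 6.75, 13.1 and 8.42 FPKM in Shine Muscat, against 1.23, 0.802 and 2.26 FPKM in Summer Black. The cultivars did not overlap, and the log2 fold change was 2.10 ± 0.31 (SE, n = 3 each; limma adjusted p = 0.00475), which made it a DEG. The call ended at 1.97 with median-of-ratios scaling, at 1.79 with quantile normalization and, by the limma adjusted p, without Shine Muscat replicate 1 (0.0159), 2 (0.0164) or 3 (0.0268) and without Summer Black replicate 1 (0.0136) or 2 (0.0118). It was also high in the other muscat cultivars, with 13.5 to 16.4 FPKM in Centennial Seedless and 11.6 to 15.7 FPKM in Midnight Beauty, and low in Victoria, with 0.145 to 0.179 FPKM. Of the 20 candidates, this was the one in which both other muscat cultivars lay above every Summer Black library and Victoria below them all.

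VvUGT VIT_17s0000g07060, the preceding ID, was low in both cultivars, with 0.0321, 0.0626 and 0.0870 FPKM in Shine Muscat, against 0.614, 0.733 and 0.408 FPKM in Summer Black. Its log2 fold change was -0.57 (95% interval -0.86 to -0.29), and its limma adjusted p of 0.0161 missed the threshold. These low values did not overlap, and with a pseudocount of 0.1 the gene was a DEG (log2 fold change -2.08; limma adjusted p = 0.00664). The limma adjusted p was 0.00865 with no filter and 0.0082 with quantile normalization, but 0.0131 to 0.0686 with 1 library left out. VvBGLU (VIT_03s0063g02490) had 64.4, 55.8 and 55.0 FPKM in Shine Muscat, against 25.4, 26.6 and 21.2 FPKM in Summer Black. The cultivars did not overlap, and the gene was 2.39-fold higher in Shine Muscat (log2 fold change 1.23 ± 0.13, SE, n = 3 each; limma adjusted p = 0.00136). Without Shine Muscat replicate 1 or 3 the adjusted p was 0.0107 and 0.0108. Among the other muscat cultivars the gene was at 54.4 to 83.6 FPKM in Centennial Seedless and 8.05 to 12.1 FPKM in Midnight Beauty, so its level did not follow aroma type.

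The 3 alcohol dehydrogenase genes (VvADH) have consecutive IDs and moved in opposite directions. VIT_00s0615g00010 was higher in Shine Muscat, with 27.1, 26.5 and 23.2 FPKM, against 5.73, 6.37 and 2.56 FPKM in Summer Black (log2 fold change 2.24 ± 0.29, SE, n = 3 each; limma adjusted p = 0.00275). VIT_00s0615g00020 was lower, with 1.39, 1.23 and 1.11 FPKM in Shine Muscat, against 7.37, 3.96 and 5.96 FPKM in Summer Black (log2 fold change -1.56 ± 0.22, SE, n = 3 each; limma adjusted p = 0.00416). VIT_00s0615g00030 was also lower, with 14.7, 16.02 and 13.98 FPKM in Shine Muscat, against 59.0, 52.2 and 31.2 FPKM in Summer Black (log2 fold change -1.56 ± 0.24, SE, n = 3 each; limma adjusted p = 0.00531). In none of the 3 genes did the cultivars overlap, and the first alone was a DEG. With a pseudocount of 0.1, VIT_00s0615g00020 was a DEG as well (log2 fold change -2.09; limma adjusted p = 0.0043). The signs of all 3 genes were the same in every fit with a library left out and under both other scalings. Without a Shine Muscat library, however, the limma adjusted p of all 3 genes was above 0.01 in each case: 0.0155 to 0.0201 for VIT_00s0615g00010, 0.0213 to 0.0289 for VIT_00s0615g00020 and 0.0217 to 0.0326 for VIT_00s0615g00030. It was also above 0.01 for VIT_00s0615g00020 without Summer Black replicate 3 (0.0137), for VIT_00s0615g00030 without Summer Black replicate 1 (0.0108) or 2 (0.0159), and the log2 fold change of VIT_00s0615g00010 was 1.91 without Summer Black replicate 3.

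VIT_00s0615g00010 was low in the other cultivars, at 0 to 0.320 FPKM in Centennial Seedless, 0.504 to 3.29 FPKM in Midnight Beauty and 0 to 0.0745 FPKM in Victoria. VIT_00s0615g00030 was at 25.6 to 33.3, 31.2 to 48.4 and 6.22 to 12.5 FPKM in the same 3 cultivars, and VIT_00s0615g00020 at 0.260 to 2.15 FPKM over all 9 of their libraries. The reverse qPCR primers of the genes lower in Shine Muscat are identical over all 24 bases, all in capitals. They are shown because such similar genes may share reads, which was not tested.
VIT_00s0615g00020 reverse: GTGGTGGTTCCATCATAGTAAGTG
VIT_00s0615g00030 reverse: GTGGTGGTTCCATCATAGTAAGTG

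The other redox enzymes among the candidates did not pass the test, and their intervals were wide except that of VvCCR VIT_13s0047g00940. VvSDR (VIT_08s0040g01200), a short-chain dehydrogenase and the most abundant candidate, had 93.1, 106 and 98.8 FPKM in Shine Muscat, against 159, 64.5 and 85.7 FPKM in Summer Black (log2 fold change 0.05, 95% interval -0.70 to 0.79). VvCCR VIT_13s0047g00940 had 13.5, 13.1 and 11.9 FPKM in Shine Muscat, against 11.8, 14.2 and 9.08 FPKM in Summer Black (log2 fold change 0.14, 95% interval -0.29 to 0.57). In both, the Summer Black libraries spanned the Shine Muscat ones. VvCCR VIT_13s0067g00620 had 4.02, 2.24 and 4.48 FPKM in Shine Muscat, against 6.71, 1.73 and 1.30 FPKM in Summer Black (log2 fold change 0.29, 95% interval -0.86 to 1.45). VvCYP (VIT_08s0007g07730) had 9.0, 8.48 and 7.07 FPKM in Shine Muscat, against 17.5, 5.18 and 17.4 FPKM in Summer Black (log2 fold change -0.49, 95% interval -1.52 to 0.55). Summer Black replicate 2 was its low library, and without it the log2 fold change was -1.01 (limma adjusted p = 0.00787), which passes the adjusted p at any fold. With all 6 libraries the limma adjusted p-values of the 4 genes were 0.931, 0.609, 0.697 and 0.457 in this order.

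Of 3 transcription factor genes, the GATA factor and 1 of 2 MYB factors were higher in Shine Muscat, both under the fold a DEG needed. VvGATA (VIT_15s0024g00980) had 10.1, 8.69 and 9.97 FPKM in Shine Muscat, against 5.04, 2.97 and 3.11 FPKM in Summer Black (log2 fold change 1.195 ± 0.21, SE, n = 3 each; limma adjusted p = 0.00851). Its adjusted p was 0.0158 with median-of-ratios scaling, 0.0186 with quantile normalization, 0.0470, 0.0304 and 0.0484 without Shine Muscat replicates 1, 2 and 3, and 0.0186 and 0.0242 without Summer Black replicates 2 and 3. Midnight Beauty, the dark muscat cultivar, had 7.85 to 10.04 FPKM, close to Shine Muscat, whereas the green cultivars had 0.723 to 1.2 FPKM (Centennial Seedless) and 0.175 to 0.220 FPKM (Victoria).

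VvMYB VIT_03s0063g02620 had 1.58, 1.25 and 1.34 FPKM in Shine Muscat, against 0.105, 0.138 and 0 FPKM in Summer Black (log2 fold change 1.14 ± 0.12, SE, n = 3 each; limma adjusted p = 0.00149). These low values did not overlap, and the limma adjusted p was 0.0108 without Shine Muscat replicate 3 and 0.257 in a fit of all 5 cultivars, which share 1 estimate of the spread. With a pseudocount of 0.1 the log2 fold change was 3.13. The gene was at 4.68 to 86.3 FPKM in Victoria, 2.30 to 7.63 FPKM in Centennial Seedless and 2.51 to 4.36 FPKM in Midnight Beauty. All these libraries lay above every Shine Muscat and Summer Black library. VvMYB VIT_17s0000g07950 had 20.9, 14.1 and 20.8 FPKM in Shine Muscat, against 19.5, 13.6 and 6.02 FPKM in Summer Black, which overlapped (log2 fold change 0.59, 95% interval -0.36 to 1.54; limma adjusted p = 0.32).

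The study's supplement lists 17 genes that differed between aroma types, among them the 3 VvADH genes above. Of the 17, 4 were DEGs (23.5%), 1 higher and 3 lower in Shine Muscat, against 3.24% of all tested genes, and the study chose this list on the same libraries too. At any fold 6 of the 17 (35.3%) passed the adjusted p, 1 higher and 5 lower, against 11.0% of all tested genes, and the median log2 fold change was -0.11. The 3 DEGs that were lower were all abundant in Summer Black. VIT_04s0079g00690 was listed at 0 in all 3 Shine Muscat libraries and had 360, 1644 and 553 FPKM in Summer Black (limma adjusted p = 0.000198). The other dark cultivar, Midnight Beauty, had 304 to 697 FPKM, and the other green ones stayed at or below 0.477 FPKM (Centennial Seedless) and 0.0553 FPKM (Victoria). The call held in every fit with a library left out, with an adjusted p of at most 0.00356.

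VIT_19s0093g00190 had 526, 462 and 463 FPKM in Shine Muscat, against 2736, 2198 and 1678 FPKM in Summer Black (log2 fold change -2.16 ± 0.23, SE, n = 3 each; limma adjusted p = 0.00135). Summer Black stood apart, since the other cultivars had 150 to 807 FPKM. The call ended without any 1 of the Shine Muscat replicates 1, 2 and 3 (limma adjusted p 0.0116, 0.0105 and 0.0155) and, by its log2 fold change of -1.99, without Summer Black replicate 1. VIT_19s0015g02880 had 173, 184 and 146 FPKM in Shine Muscat, against 907, 654 and 637 FPKM in Summer Black (log2 fold change -2.11 ± 0.18, SE, n = 3 each; limma adjusted p = 0.00077). Its log2 fold change was -1.95 without Summer Black replicate 1, which ended the call. Here Victoria was the highest cultivar, at 2783 to 3615 FPKM. Centennial Seedless had 833 to 1155 FPKM, and Midnight Beauty, at 96.0 to 299 FPKM, was low like Shine Muscat.

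The other 11 genes of the list that are not VvADH genes did not pass the test with all 6 libraries. VIT_01s0011g06260 was alike in level, with 56.3, 59.3 and 56.5 FPKM in Shine Muscat, against 46.0, 62.6 and 61.1 FPKM in Summer Black (log2 fold change 0.03, 95% interval -0.30 to 0.37). VIT_00s0218g00010 was the nearest to the threshold, with 0.425, 0.0860 and 0.252 FPKM in Shine Muscat, against 4.15, 1.27 and 4.02 FPKM in Summer Black (log2 fold change -1.64, 95% interval -2.45 to -0.84; limma adjusted p = 0.0153). Without Summer Black replicate 2, its lowest Summer Black library, the gene was a DEG (log2 fold change -2.03; limma adjusted p = 0.00175), and in a fit of all 5 cultivars its adjusted p was 0.00199. The rest stood below 5 FPKM in all 6 libraries, apart from VIT_03s0063g00450, at 7.33 FPKM in Summer Black replicate 3 and 1.12 to 2.61 FPKM in the other 5 libraries. newGene_3002 was listed at 0 in all 6 libraries and had 4.33 to 7.03 FPKM in Victoria.

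The largest log2 fold changes at a pseudocount of 1 were in genes to which the sources used here give no name. At a pseudocount of 0.1 the order differed: VvTPS VIT_00s0271g00010 had 8.16, above VIT_18s0117g00070 (7.71) and VIT_00s0324g00050 (7.06). VIT_00s0324g00050 had 169, 130 and 160 FPKM in Shine Muscat, against 0.895, 0.781 and 1.59 FPKM in Summer Black (log2 fold change 6.22 ± 0.19, SE, n = 3 each; limma adjusted p = 3.76e-05). Victoria had 49.8 to 71.8 FPKM of it, and the muscat cultivars Centennial Seedless and Midnight Beauty 0.106 to 11.1 FPKM. VIT_18s0117g00070 had 61.3, 66.3 and 59.9 FPKM in Shine Muscat, against 0.0258, 0.658 and 0.177 FPKM in Summer Black (log2 fold change 5.65 ± 0.21, SE, n = 3 each; limma adjusted p = 6.9e-05). Here Summer Black stood alone, with 7.64 to 85.7 FPKM in all 9 libraries of the other cultivars. In the other direction, VIT_12s0034g01970 had 0.255, 0.627 and 0.291 FPKM in Shine Muscat, against 165, 127 and 329 FPKM in Summer Black (log2 fold change -7.12 ± 0.35, SE, n = 3 each; limma adjusted p = 0.000141). Shine Muscat stood alone for this gene, which was at 35.3 to 599 FPKM in the libraries of the other 3 cultivars.

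Some DEGs stood beside each other in the order of the gene IDs within a scaffold code, where a run means IDs with no other ID of the table between them, although numbers may be skipped. Of 368 annotated DEGs higher in Shine Muscat, 56 (15.2%) stood in 23 runs of genes all called higher. Of all 17493 annotated tested genes, 2.47% had a higher DEG as the next or previous ID. Of 191 annotated lower DEGs, 36 (18.8%) stood in 16 such runs of lower DEGs, and 1.26% of the annotated tested genes had a lower DEG beside them. These shares are a description and were not tested. The longest run held 6 genes and includes VIT_18s0117g00070. Its genes had 8.48 to 66.3 FPKM in Shine Muscat and 0.0258 to 4.52 FPKM in Summer Black, while the other cultivars' libraries lay between 0.895 and 85.7 FPKM. The longest run of lower DEGs held 4 genes with scaffold code 19s0014, all listed at 0 in Shine Muscat and at 14.6 to 84.3 FPKM in Summer Black. In Centennial Seedless and Victoria these 4 genes were listed at 0 too, and Midnight Beauty had at most 0.0989 FPKM. By chromosome code, the share of tested genes that were DEGs was between 1.54% (code 08) and 5.03% (code 00, sequence not placed on a chromosome), with 4.79% for code 13. Neighbouring genes can be copies of each other that share reads, and this was not tested.

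Each DEG was then placed by whether the mean log2(FPKM + 1) of every other cultivar lay nearer to Shine Muscat or to Summer Black. Among DEGs lower in Shine Muscat, all 3 other cultivars were nearer to Shine Muscat in 93 (44.9%), so that Summer Black stood apart, and they were nearer to Summer Black in 36 (17.4%). Over all tested genes these shares were 28.7% and 29.1%. Among DEGs higher in Shine Muscat the shares were nearer to those of all genes, with Summer Black apart in 118 (30.7%) and Shine Muscat apart in 106 (27.6%). The filter fixes part of these shares. A DEG that reached 1 FPKM in Summer Black alone is lower with Summer Black apart by construction. One that reached it in Shine Muscat alone is higher with Shine Muscat apart. How many DEGs are of these kinds was not counted, and most of the tested genes beside them were not DEGs. With any 1 of the 6 libraries left out, Summer Black stood apart in 41.5% to 47.5% of the lower DEGs and in 25.5% to 33.4% of the higher DEGs. These shares are a description and were not tested.

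The aroma and colour arrangements were less frequent. In 39 of the higher DEGs (10.2%) and 16 of the lower DEGs (7.73%), the muscat cultivars Centennial Seedless and Midnight Beauty were nearer to Shine Muscat and Victoria was nearer to Summer Black, beside 7.29% of all tested genes. VvUGT VIT_17s0000g07070 was 1 of these 39. In 17 of the higher DEGs (4.43%) and 21 of the lower DEGs (10.1%), the green cultivars Centennial Seedless and Victoria were nearer to Shine Muscat and dark Midnight Beauty was nearer to Summer Black, beside 6.92% of all tested genes. VIT_04s0079g00690 was 1 of these 21.

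**Figure D4:**
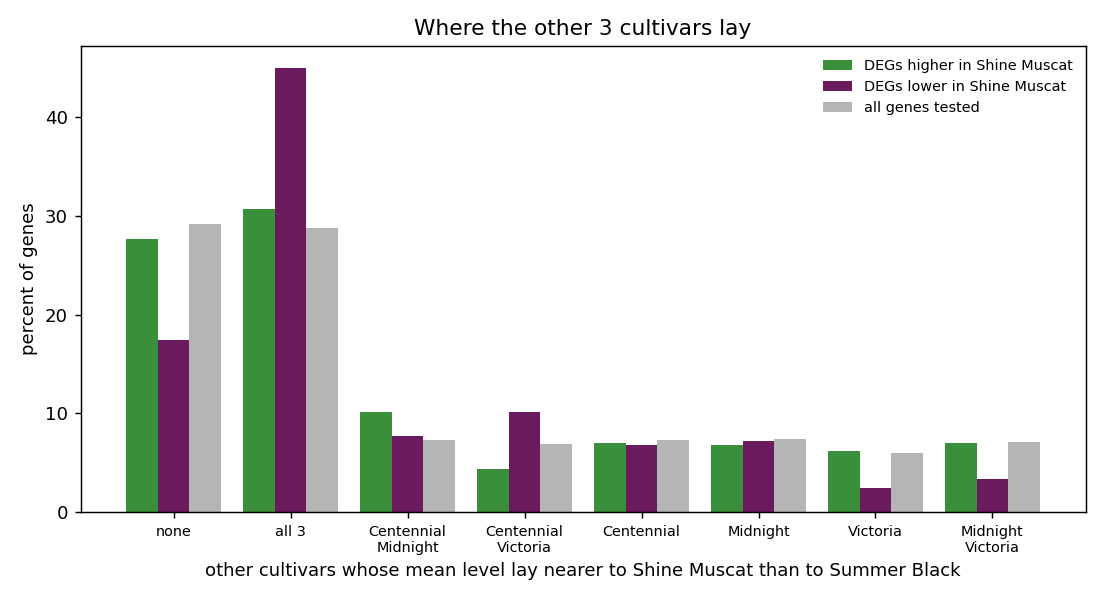
Percent of DEGs higher in Shine Muscat, of DEGs lower in Shine Muscat and of all tested genes (vertical axis), by which of the other 3 cultivars had a mean level nearer to Shine Muscat than to Summer Black (horizontal axis). The tallest bar is that of lower DEGs for which all 3 were nearer to Shine Muscat, at 44.9% against 28.7% of all tested genes. DEGs that passed the filter through Summer Black alone fall in this bar by construction.

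A second green cultivar could be set against a dark one without sharing a library. Centennial Seedless against Midnight Beauty, both muscat, gave 155 DEGs by the same rule (0.850% of tested genes), 69 higher (0.378% of tested genes) and 86 lower (0.472%) in Centennial Seedless. Of the 207 DEGs lower in Shine Muscat, 20 were also lower in Centennial Seedless, which is 9.66% of the first list and 23.3% of the 86, and 9 were higher there. Of the 384 DEGs higher in Shine Muscat, 5 were also higher in Centennial Seedless (1.30% of the first list and 7.25% of the 69) and 8 were lower. The 155 became 58 and 78 without Midnight Beauty replicates 1 and 3, and 72, 47 and 57 without Centennial Seedless replicates 1, 2 and 3, and the 20 shared genes became 10, 13, 8, 7 and 6 in the same fits, while the 5 became 1, 0, 1, 0 and 0. Without Midnight Beauty replicate 2 there were 104 DEGs, with 16 of the 20 and 2 of the 5. The 20 included VIT_04s0079g00690 (log2 fold change -8.72 in Centennial Seedless over Midnight Beauty, limma adjusted p = 0.000494). Among the aroma candidates, 3 were DEGs in that pair. VvGATA was lower and VvBGLU was higher in Centennial Seedless than in Midnight Beauty (log2 fold changes -2.36 and 2.63; limma adjusted p = 0.00208 and 0.00331), so that VvGATA went the other way from Shine Muscat over Summer Black and VvBGLU the same way. VvCCR VIT_13s0067g00620 was higher in Centennial Seedless (log2 fold change 2.13; limma adjusted p = 0.00226) and had not passed between Shine Muscat and Summer Black. VvDXS had a log2 fold change of 0.18 in that pair (limma adjusted p = 0.339).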

How the data were processed

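Skin RNA of 5 grape cultivars was sequenced, with 3 libraries each. The authors deposited 1 table of FPKM values per gene and library, mapped to the PN40024 12X assembly. The methods name Bowtie2 and RSEM, the submitters' processing notes name HISAT2 and StringTie, and the kits also differ between these sources, so the route of these values is uncertain. Depth per library is not held in FPKM, and no counting intervals are given. Differences in read mapping between the cultivars and the reference may act on single genes and were not tested. No column was left unmapped.

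Genes that reached 1 FPKM in 3 or more of the 15 libraries entered a fit on log2(FPKM + 1) with limma 3.58.1 in R 4.3.3 (trended variance, Benjamini-Hochberg over all 18238 genes), with the 3 Shine Muscat and 3 Summer Black libraries in the fit. This log scale understates changes of low genes. P-values weigh the difference between the cultivars against the spread between these libraries, pooled over both cultivars and moderated across genes. DEG thresholds follow the study's results section. The fit was tested on simulated data with equal spread in both cultivars and with changes only in genes well above 0 in Summer Black. In these data Summer Black spread wider and some DEGs were listed at 0 in a cultivar, which that test did not cover. The members and lists were chosen with earlier results of these data known. Named genes were the study's 20 candidates, the 17 genes of its supplement, and, since 0 IDs of the table matched the reference table used here, no more than 2 further IDs in each direction among the largest changes. Lists of pathway genes drawn up at the start were not used, because no source used here names their IDs. Alternatives were another pseudocount, filter, scaling, fit and threshold, and leaving out each library. The pattern shares and shared DEGs with a library left out, and the share of tested genes beside a DEG, were added after seeing the data. Sequences are the study's qPCR primers.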

Additional observations from a re-analysis of the deposited data

How the results depend on the processing

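The fit of Shine Muscat against Summer Black gave 591 DEGs, 384 higher and 207 lower in Shine Muscat. A pseudocount of 0.1 gave 1114 (714 higher, 400 lower), and the looser fold and stricter p of the study's methods (log2 fold change of 1, adjusted p under 0.005) gave 1286 (935 higher, 351 lower). Leaving out 1 library gave 315 to 663 DEGs, 212 to 429 higher and 103 to 238 lower. Quantile normalization gave 528 (293 higher, 235 lower) and scaling by median of ratios 539 (326 higher, 213 lower), so the share of DEGs that were higher was 55.5% and 60.5%, beside 65.0%. Other counts were 563 with no filter, 524 with a filter at 5 FPKM, 663 in a fit of all 5 cultivars and 586 with no variance trend. With the replicate number as a replicate block the fit gave 411 DEGs, 277 higher and 134 lower. Of the named DEGs, VIT_13s0084g00010 (limma adjusted p = 0.0127) and VIT_17s0000g07070 (0.0209) were then not called, and VIT_00s0615g00020 (0.0171), VIT_00s0615g00030 (0.0129), VIT_03s0063g02620 (0.0140) and VIT_15s0024g00980 (0.0273) no longer passed the adjusted p at any fold. Libraries of the same number did not deviate together (r of -0.06, -0.22 and -0.08 across genes, which are not independent), and no sample correlated best with its own number. Between unlike numbers r reached 0.17, for Shine Muscat replicate 1 with Summer Black replicate 2. Whether replicates of the cultivars share a factor under another numbering was not tested. Centennial Seedless against Midnight Beauty gave 155 DEGs, 319 with a pseudocount of 0.1, 40 with the replicate block (4 of the 20 shared lower genes and 0 of the 5 shared higher genes) and 47 to 104 with 1 library left out. Of the 12 named DEGs, 5 were called under every alternative. Signs turned only in genes that were not called. By median of ratios and quantile normalization the log2 fold change was -0.0033 and -0.025 for VIT_13s0047g00940, -0.11 and -0.028 for VIT_08s0040g01200, and -0.12 and -0.053 for VIT_01s0011g06260. With 1 library left out it ran from -0.039 to 0.83 for VIT_13s0067g00620, -0.015 to 0.28 for VIT_13s0047g00940, -0.24 to 0.41 for VIT_08s0040g01200, -0.55 to 0.44 for VIT_03s0063g00450, -0.11 to 0.11 for VIT_01s0011g06260 and -0.25 to 0.035 for VIT_16s0022g01160. The cause of these shifts was not tested. With FPKM alone, depth behind single values is unknown, and values near 0 carry the least information.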
